A study of Mus musculus with 4 samples.

Results

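The 7 genes described here are Neurod1, Neurod2, Neurod6, Prox1, Bcl11b, Tbr1 and Fibcd1, which are enriched in the hippocampus and cerebral cortex, the tissues that lie over the habenula. They were chosen by symbol, through their Ensembl identifiers, and make up 7 of the 53465 gene identifiers in the count matrix. Expression was measured by poly(A) RNA sequencing of lateral habenula tissue from C57BL/6 mice, in 2 libraries from socially isolated mice and 2 libraries from group-housed mice. The series title calls the isolation acute and names synaptic plasticity in this nucleus and social decision as its subjects. Neither the labels nor the files state how long the isolation lasted, the age and sex of the mice, or whether a library came from 1 animal or a pool. The p-values thus reflect the spread among these 4 libraries, part of which may be technical.

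Most of these genes encode transcription factors that set the identity of glutamatergic neurons of the pallium, the dorsal part of the forebrain. Neurod1, Neurod2 and Neurod6 are basic helix-loop-helix (bHLH) factors that pair with the widely made E proteins and bind the E-box, a short DNA motif, to drive neuronal differentiation. Prox1 is a homeobox factor of dentate gyrus granule cells, Bcl11b (CTIP2) a zinc-finger factor of deep cortical layers, hippocampus and striatum, and Tbr1 a T-box factor of deep-layer cortical neurons. Fibcd1 encodes a transmembrane receptor that binds acetylated sugars and is used as a marker of CA1 pyramidal neurons.

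The libraries held 26428152 and 25985591 counts in the isolated group and 20897605 and 25640860 in the group-housed group. Levels are given as CPM, counts scaled to a common library total adjusted by TMM, a scaling that removes differences in composition. A count of 3 corresponded to 0.114 to 0.144 CPM of the unadjusted total. Markers of the labelled tissue were present: the 9 lateral habenula markers summed to 1759 and 1530 CPM in the isolated and 1675 and 1554 CPM in the group-housed libraries, and none was at 0. Tissue next to it was present too, since 12 medial habenula markers summed to 1813 and 1830 CPM in the isolated and 1444 and 1343 CPM in the group-housed libraries. The 12 thalamus markers summed to 840 and 626 CPM in the isolated and 865 and 999 CPM in the group-housed libraries.

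All 7 genes passed the low-count filter, but their levels were far apart. Per kilobase of annotated exon, Fibcd1 stood highest at 18.8 ± 2.65 RPKM (CPM per kilobase; SD, n = 4 libraries), followed by Neurod1 at 10.4 ± 1.996 and Prox1 at 7.20 ± 0.708 RPKM. Neurod2 at 1.44 ± 0.486 and Bcl11b at 1.28 ± 0.260 RPKM came next, and their ranges over the libraries overlapped, so these neighbours were not separated. Neurod6 stood at 0.460 ± 0.122 RPKM and Tbr1 at 0.121 ± 0.0191 RPKM. Each of the other neighbours in this order had ranges over the 4 libraries that did not overlap.

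**Figure D1:**
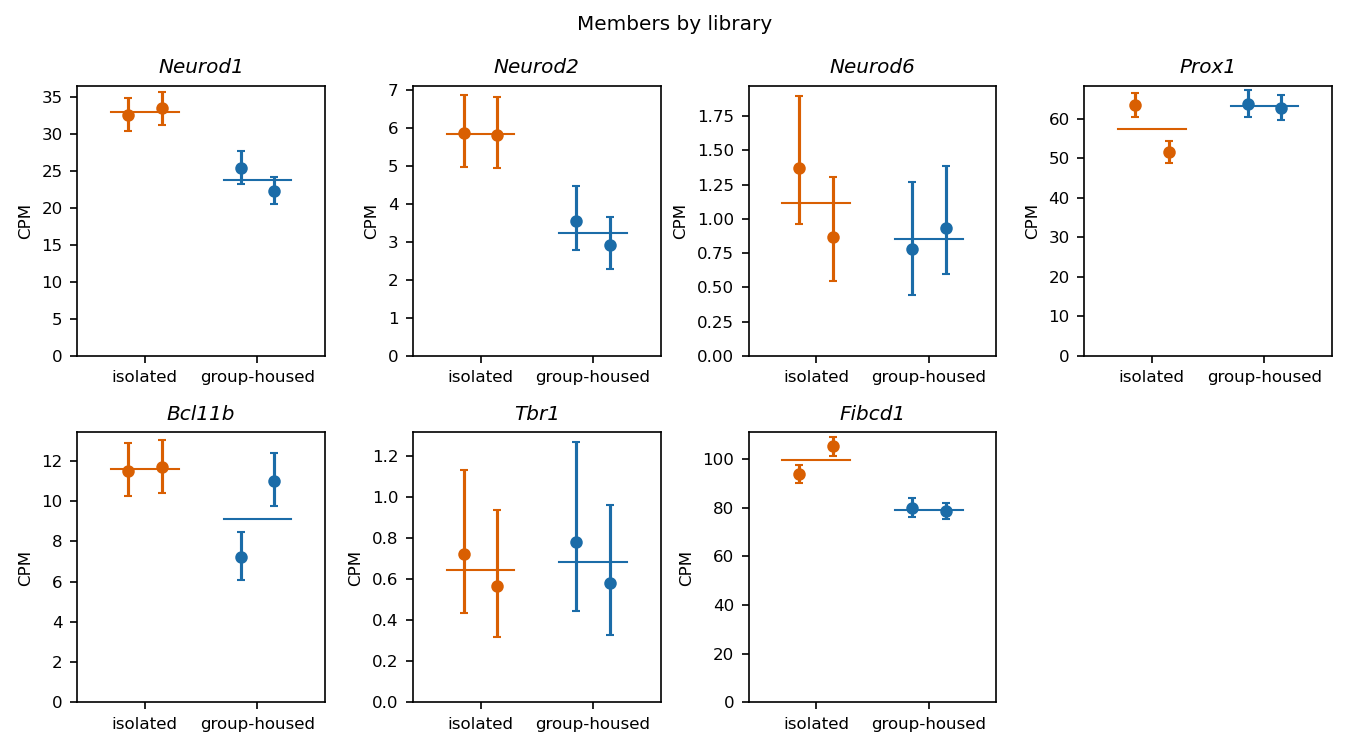
CPM (y axis, from 0) of each gene in the isolated (orange, left) and group-housed (blue, right) libraries. Points are libraries, vertical bars 95% exact Poisson intervals that cover counting error only, and horizontal lines group means. Neurod1, Neurod2 and Fibcd1 show separated groups, Bcl11b has 1 low group-housed library, and Neurod6 and Tbr1 have wide bars because few reads were counted.

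Markers of hippocampus and cortex spanned a wide range of levels, as the 7 genes did. Of 30 markers in 3 lists (dentate granule cells, hippocampal pyramidal cells, and cortical projection neurons with pallium), 21 averaged at least 1 CPM over the 4 libraries and 9 averaged below it. The most abundant was Nrn1, neuritin, with 7638 and 7683 counts in the isolated and 5860 and 7051 in the group-housed libraries. Wfs1, a marker of CA1 pyramidal neurons, had 1529 and 1591 counts in the isolated and 1233 and 1561 in the group-housed libraries. At the other end, Emx1, a factor of cortical and hippocampal progenitors and their neurons, had 2 and 3 counts in the isolated and 2 and 4 in the group-housed libraries. Fezf2, a factor of subcerebral projection neurons, had 1 and 2 counts in each group. Spink8, a marker of hippocampal pyramidal neurons, had 3 and 1 counts in the isolated and 1 and 1 in the group-housed libraries. These markers were picked out after their values were seen, from the upper and lower ends of the lists, and which tissue the reads of the 7 genes came from was not tested.

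**Figure D2:**
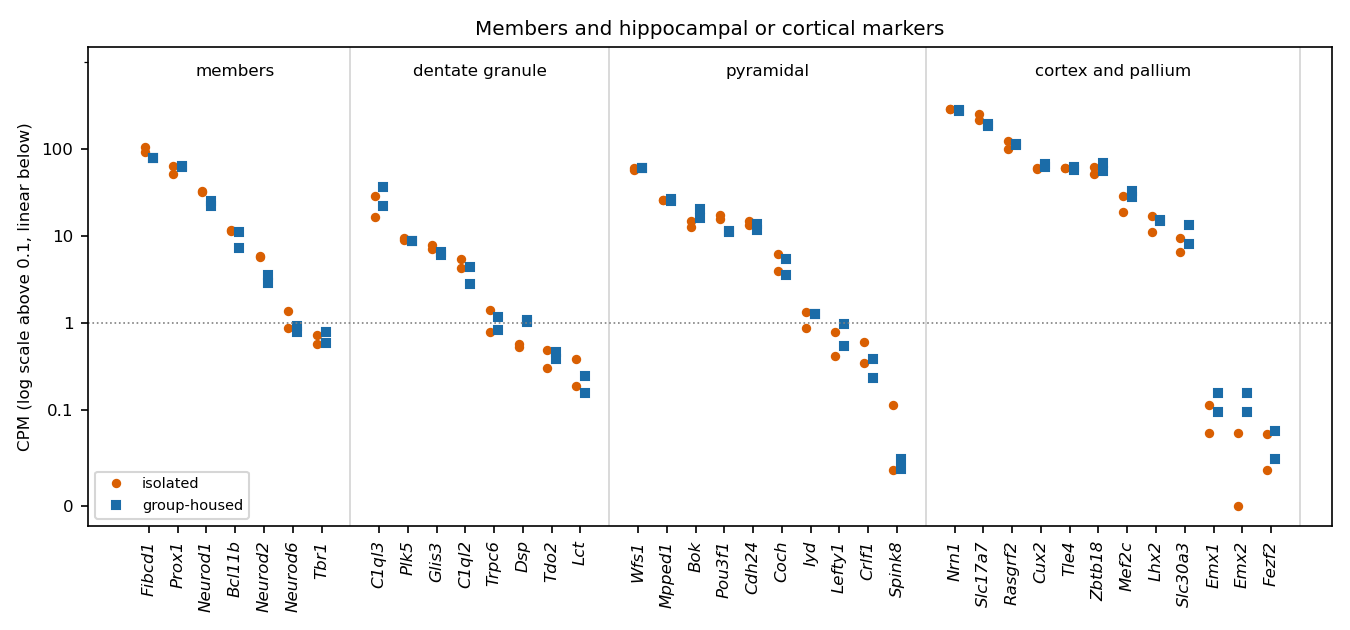
CPM (y axis, logarithmic above 0.1 and linear below it) of the 7 genes and of 30 hippocampal and cortical markers, in isolated (orange circles) and group-housed (blue squares) libraries, each list ordered by mean level. The dotted line marks 1 CPM. Emx1, Emx2 and Fezf2 lie below it in every library, while the most abundant genes of each list lie above 10 CPM.

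The comparison of isolated with group-housed libraries asks whether isolation changed the level of these genes. None of the 7 genes passed the quasi-likelihood test of edgeR, adjusted by Benjamini-Hochberg over 17528 genes, in which 0.0114% of all genes were called in either direction. Without adjustment 3 of the 7, Neurod1, Neurod2 and Fibcd1, had p below 0.05 and were higher in the isolated libraries, beside 2.83% of all tested genes, and 0 were lower, beside 2.26%. For 4 of the 7, these and Bcl11b, the groups did not overlap and the isolated libraries were the higher, beside 17.4% of all tested genes. For 0 of the 7 the groups did not overlap with the isolated libraries lower, beside 16.3%. The median log2 fold change of the 7 was 0.34, beside 0.0033 over all tested genes, and the genes were chosen with earlier results of these data known. In bulk tissue, a change in the number of cells of a type and a change in RNA per cell cannot be told apart.

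Neurod1, the factor of dentate and cerebellar granule cell differentiation, was the most abundant of the NeuroD genes. It had 854 and 884 counts in the isolated and 520 and 572 counts in the group-housed libraries, or 32.5 and 33.4 CPM against 25.3 and 22.3 CPM. Both isolated libraries were above both group-housed ones, and the replicates of each group lay closer to each other than to the other group. Means were 33.0 ± 0.607 CPM in isolated and 23.8 ± 2.19 CPM in group-housed libraries (SD, n = 2 each). The log2 fold change was 0.47 (SE 0.09, 95% interval 0.27 to 0.68), which ranked 40 of 17528 by p but did not pass adjustment (edgeR adjusted p = 0.256). Neurod1 (ENSMUSG00000034701) maps to chromosome 2, bases 79452521 to 79456751, minus strand on GRCm38. Its exons share 201 bases (7.37%) with Cerkl on the same strand and 154 bases (5.64%) with Gm26755 on the other, and its count is uncertain to that extent. Cerkl had 71 and 79 counts in the isolated and 44 and 59 in the group-housed libraries, and Gm26755 had 2 to 4 in any library.

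Neurod2, a factor that promotes differentiation and synapse maturation of cortical and hippocampal glutamatergic neurons, gave the largest log2 fold change of the 7 genes. It had 154 and 154 counts in the isolated and 73 and 75 in the group-housed libraries, or 5.87 and 5.82 CPM against 3.56 and 2.92 CPM. The counting intervals of the isolated libraries, 4.98 to 6.87 and 4.93 to 6.81 CPM, did not overlap those of the group-housed libraries, 2.79 to 4.47 and 2.30 to 3.66 CPM. The log2 fold change was 0.86 (SE 0.19, 95% interval 0.43 to 1.28), a fold of 1.81, with an edgeR adjusted p = 0.377. Neurod2 (ENSMUSG00000038255) maps to chromosome 11, bases 98325415 to 98329648, minus strand on GRCm38, and no exon of another annotated gene overlaps its own.

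Neurod6 (NEX), a factor of cortical and hippocampal pyramidal neurons, was near the lower end of what could be tested. It had 36 and 23 counts in the isolated and 16 and 24 in the group-housed libraries, or 1.37 and 0.869 CPM against 0.780 and 0.934 CPM. The groups overlapped, since isolated replicate 2 lay below group-housed replicate 2. The log2 fold change was 0.37 (SE 0.35, edgeR adjusted p = 0.9998), and its 95% interval of -0.42 to 1.17 includes both no difference and a change as large as that of Neurod2. Neurod6 (ENSMUSG00000037984) maps to chromosome 6, bases 55677822 to 55681263, minus strand.

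The 3 NeuroD genes are relatives, so the longest stretch of identical bases in their coding sequences was sought in the GENCODE transcripts, because reads inside such a stretch cannot be assigned to 1 gene. The longest run was 25 bases, bases 434 to 458 of the Neurod1 and 497 to 521 of the Neurod2 coding sequence, and Neurod1 and Neurod6 shared at most 17 bases. The labels do not state the read length.
Neurod1 and Neurod2: tggccaagaactacatctgggctct
Neurod1 and Neurod6: gaagaggaggaagaaga

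Within the summed NeuroD counts, Neurod1 made up 81.8% and 83.3% in the isolated and 85.4% and 85.2% in the group-housed libraries. Neurod2 made up 14.8% (95% exact interval 12.7 to 17.0) and 14.5% (12.4 to 16.8) in the isolated libraries, against 11.99% (9.51 to 14.8) and 11.2% (8.89 to 13.8) in the group-housed libraries. The share of Neurod2 was higher in both isolated libraries, but the intervals of the groups overlapped. Neurod6 made up 2.17 to 3.58% in any library, with no separation of the groups.

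Because the groups of Neurod1, Neurod2 and Fibcd1 separated in the same direction, the bases just upstream of their starts are shown, with those of Neurod6 as the relative whose groups overlapped. The sequences are from RefSeq on GRCm38.p6, read 5′ to 3′ on the minus strand that carries each gene, up to the last base before both the RefSeq and the GENCODE start. Capitals mark every CANNTG, the E-box pattern that bHLH factors bind, which reads the same on both strands. The windows are chr2:79456752-79456886 for Neurod1, chr11:98329649-98329895 for Neurod2, chr6:55681264-55681513 for Neurod6 and chr2:31846006-31846255 for Fibcd1.
Neurod1: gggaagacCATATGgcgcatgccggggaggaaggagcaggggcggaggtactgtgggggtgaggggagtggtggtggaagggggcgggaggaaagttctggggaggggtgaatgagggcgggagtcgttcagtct
Neurod2: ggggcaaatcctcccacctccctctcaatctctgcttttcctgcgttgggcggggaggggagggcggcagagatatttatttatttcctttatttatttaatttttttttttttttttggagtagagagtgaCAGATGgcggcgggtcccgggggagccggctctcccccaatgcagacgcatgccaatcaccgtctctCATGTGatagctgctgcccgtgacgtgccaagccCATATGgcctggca
Neurod6: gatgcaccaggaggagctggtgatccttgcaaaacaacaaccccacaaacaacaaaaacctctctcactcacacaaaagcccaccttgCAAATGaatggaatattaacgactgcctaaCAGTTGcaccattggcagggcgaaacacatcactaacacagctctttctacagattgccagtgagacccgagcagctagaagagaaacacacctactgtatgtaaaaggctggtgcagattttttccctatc
Fibcd1: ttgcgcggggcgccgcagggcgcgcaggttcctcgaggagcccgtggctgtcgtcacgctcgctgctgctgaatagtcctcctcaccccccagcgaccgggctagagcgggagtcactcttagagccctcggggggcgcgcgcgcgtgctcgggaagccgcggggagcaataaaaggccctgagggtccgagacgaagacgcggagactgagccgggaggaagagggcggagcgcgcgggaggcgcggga

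In the 250 bases before the RefSeq start, Neurod2 held 3 matches, Neurod6 held 2, Neurod1 held 1 and Fibcd1 held 0. Of 32851 RefSeq promoter windows of that length, 66.2% held at least 1 match and 12.2% held 3 or more. The variant CAGATG or its reverse complement CATCTG, which is contained in CANNTG, occurred 1 time in the Neurod2 window and in 14.4% of all windows. It also occurred 1 time in 1 of the 2 windows of Prox1, whose groups overlapped. Bcl11b, whose isolated libraries were also the higher, held 0 matches of either pattern. A match is a description of the letters and does not show binding.

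Fibcd1, the acetyl-sugar receptor, was the most abundant of the 7 genes. It had 2465 and 2784 counts in the isolated and 1639 and 2018 in the group-housed libraries, or 93.9 and 105 CPM against 79.9 and 78.5 CPM. Both isolated libraries were above both group-housed ones, and the counting intervals of the isolated replicates, 90.2 to 97.7 and 101 to 109 CPM, did not overlap each other. Means were 99.5 ± 7.96 CPM in isolated and 79.2 ± 0.976 CPM in group-housed libraries (SD, n = 2 each), a log2 fold change of 0.33 (SE 0.07, 95% interval 0.17 to 0.49, edgeR adjusted p = 0.377). Fibcd1 (ENSMUSG00000026841) maps to chromosome 2, bases 31813290 to 31846005, minus strand, with no overlapping exon of another annotated gene.

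Bcl11b, the CTIP2 zinc-finger factor, was set apart by 1 library. It had 302 and 309 counts in the isolated and 148 and 283 in the group-housed libraries, or 11.5 and 11.7 CPM against 7.21 and 11.01 CPM. Both isolated libraries were above both group-housed ones, but group-housed replicate 2 lay close to the isolated libraries and its counting interval, 9.76 to 12.4 CPM, contained both isolated values. The interval of group-housed replicate 1 was 6.10 to 8.47 CPM. The log2 fold change was 0.34 (SE 0.19, edgeR adjusted p = 0.979), and it was 0.07 with group-housed replicate 1 left out and 0.67 with group-housed replicate 2 left out. Bcl11b (ENSMUSG00000048251) maps to chromosome 12, bases 107910403 to 108003602, minus strand.

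Prox1, the homeobox factor of granule cells, was the gene among those well counted that did not separate the groups. It had 1667 and 1364 counts in the isolated and 1309 and 1614 in the group-housed libraries, or 63.5 and 51.5 CPM against 63.8 and 62.8 CPM. Isolated replicate 2 alone was low, with a counting interval of 48.8 to 54.3 CPM, while isolated replicate 1 lay between the group-housed libraries. The log2 fold change was -0.14 (SE 0.10, 95% interval -0.36 to 0.08, edgeR adjusted p = 0.996), and without isolated replicate 2 it was 0.0053. Prox1 (ENSMUSG00000010175) maps to chromosome 1, bases 190118035 to 190170714, minus strand. The antisense gene Prox1os, which overlaps 133 of the 8390 exonic bases of Prox1, had 71 to 88 counts in any library. The sources do not say whether the counting used strand.

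Tbr1, the T-box factor of deep cortical layers, was at the lowest level of the 7 genes. It had 19 and 15 counts in the isolated and 16 and 15 in the group-housed libraries, or 0.724 and 0.567 CPM against 0.780 and 0.584 CPM. The groups overlapped. The log2 fold change of -0.06 (SE 0.37, edgeR adjusted p = 0.9998) had a 95% interval of -0.91 to 0.78, so differences of either sign within that range were not excluded. Tbr1 (ENSMUSG00000035033) maps to chromosome 2, bases 61802930 to 61814114, plus strand.

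**Figure D3:**
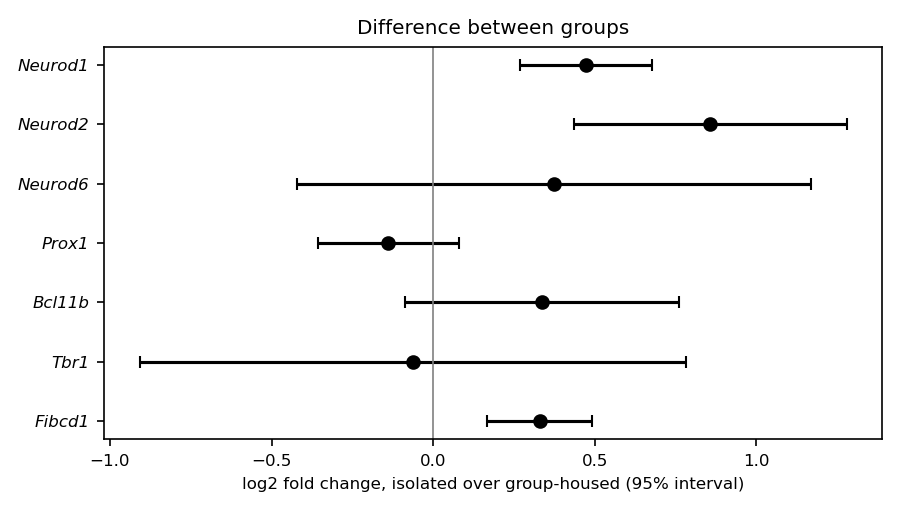
Log2 fold change of each gene, isolated over group-housed (x axis), with the 95% interval of the edgeR quasi-likelihood fit before any adjustment for multiple testing. The intervals of Neurod1, Neurod2 and Fibcd1 lie above 0, while those of Neurod6, Prox1, Bcl11b and Tbr1 include it.

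The calls of these genes depended on the test. With edgeR's exact test, Neurod1 (adjusted p = 0.00687), Neurod2 (0.0267) and Fibcd1 (0.0317) passed as higher, 3 of 7 beside 0.382% of all tested genes, and 0 of 7 passed as lower, beside 0.0856%. Neither DESeq2 (adjusted p = 0.170, 0.577 and 0.214) nor limma-voom (0.253, 0.373 and 0.435) called any of them. With isolated replicate 1 left out, the quasi-likelihood test called Fibcd1 (log2 fold change 0.41, edgeR adjusted p = 0.0174), in a fit that called 0.835% of 18089 genes as higher. The isolated group then holds 1 library, so that the spread in this fit comes from the 2 group-housed libraries alone and the lone library is assumed to vary like them.

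**Figure D4:**
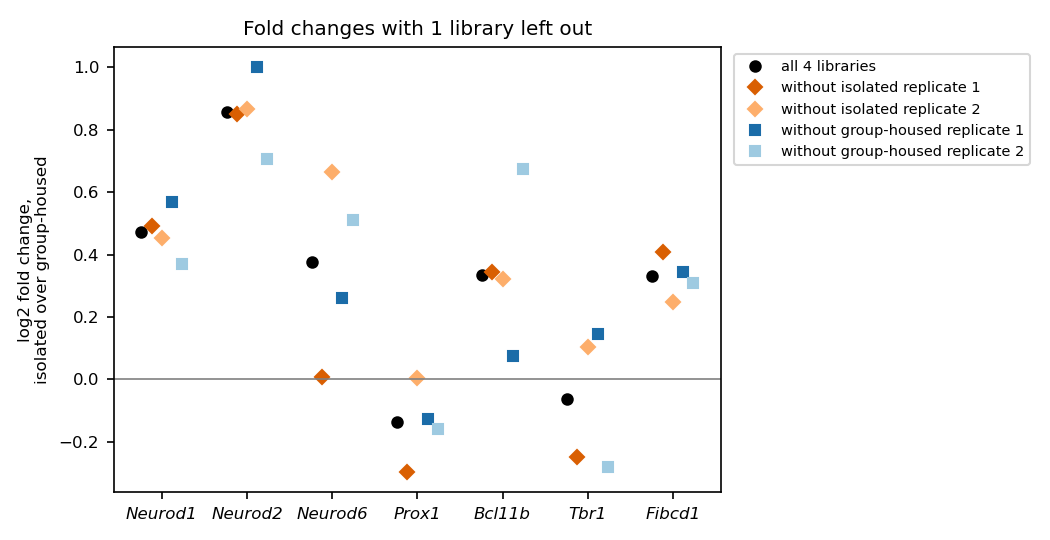
Log2 fold change, isolated over group-housed (y axis), of each gene with all 4 libraries (black) and with 1 library left out (coloured). Neurod1 stays between 0.37 and 0.57, Neurod2 between 0.71 and 1.001 and Fibcd1 between 0.25 and 0.41, whereas Bcl11b runs from 0.07 to 0.67, Neurod6 from 0.0086 to 0.67, and Prox1 and Tbr1 cross 0.

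Across the 4 libraries the genes did not share a single profile. For each of the 7, the other 6 and the tested genes of the hippocampal, cortical, habenular and thalamic lists, 63 in all, were ranked by the Euclidean distance between log2 CPM profiles centred on their mean. The nearest profile to Neurod1 was that of Chrnb4 (distance 0.0866 on the log2 scale), a nicotinic receptor subunit gene of the medial habenula, and the next was Nwd2 (0.127), another marker of that nucleus. The nearest to Neurod2 were Chrnb3 (0.145), a nicotinic subunit gene, and Chat (0.202), which makes acetylcholine, both in the medial habenula list. Fibcd1 lay nearest to Slc17a7 (0.103), the vesicular glutamate transporter VGLUT1, which stands in the cortical list here and is also made in the medial habenula. It lay next nearest to Tac2 (0.129), the neurokinin B gene of the medial habenula list. Prox1 lay nearest to Pcdh10 (0.0676) and Htr2c (0.0792), both in the lateral habenula list. Bcl11b lay nearest to C1ql2 (0.225), a secreted synaptic protein gene of dentate granule cells, and Cdh24 (0.381), Neurod6 to Trpc6 (0.299) and Cdh24 (0.349), and Tbr1 to Zbtb18 (0.0748) and Chrm3 (0.199). With 4 libraries such distances are a description, and for Tbr1 and Neurod6 they rest on at most 36 counts a library. The lists compared also differ in pattern. Both isolated libraries were above both group-housed ones for 10 of 12 medial habenula, 5 of 24 tested hippocampal and cortical and 0 of 12 thalamus markers. A gene with that pattern, which 17.4% of all tested genes had, thus falls more readily near a medial habenula marker.

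**Figure D5:**
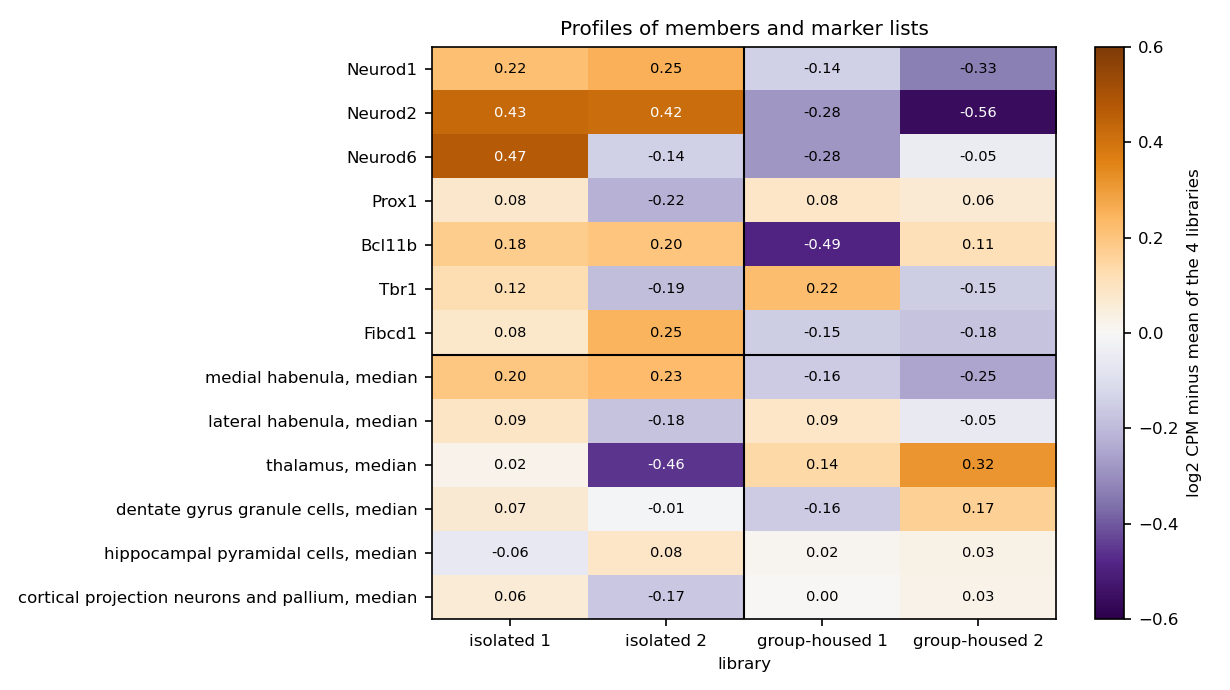
Log2 CPM minus the gene's mean over the 4 libraries (colour and printed value) for the 7 genes, above the line, and the same as a median over the tested genes of 6 marker lists, below it. Columns are libraries, isolated on the left. Neurod1, Neurod2 and Fibcd1 and the medial habenula median are above 0 in both isolated and below 0 in both group-housed libraries, and the medians of the 3 hippocampal and cortical lists are not.

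Medial habenula markers stood higher in the same libraries as Neurod1, Neurod2 and Fibcd1, and none of the markers was at 0. Of 12 markers, 10 were higher in each isolated library than in either group-housed one and 0 were lower in each, beside 17.4% and 16.3% of all tested genes, with a median log2 fold change of 0.40. The list was chosen with earlier results of these data known, so these shares are a description. The genes called over the whole table were Chrnb3 (64.1 ± 3.72 CPM in isolated and 35.5 ± 2.12 CPM in group-housed libraries, SD, n = 2 each, edgeR adjusted p = 0.0227) and Slc5a7, the choline transporter (97.8 ± 0.138 and 62.2 ± 0.886 CPM, edgeR adjusted p = 0.0227). Omitting either group-housed library ended both calls, in fits whose spread comes from the 2 isolated libraries alone, while the log2 fold changes of 0.85 for Chrnb3 and 0.65 for Slc5a7 moved little. With replicate 1 omitted they were 0.91 for Chrnb3 (edgeR adjusted p = 0.0754) and 0.67 for Slc5a7 (0.137). With replicate 2 omitted they were 0.78 (edgeR adjusted p = 0.156) and 0.63 (0.226). For every 100 counts of the 12 markers there were 1.79 and 1.82 Neurod1 counts in the isolated libraries. In the group-housed libraries there were 1.76 and 1.66. Both isolated libraries were above, but isolated replicate 1 and group-housed replicate 1 differed by less than counting error. The Neurod1 counting interval of group-housed replicate 1 was 23.2 to 27.6 CPM around 25.3 CPM. The Neurod1 groups were thus not separated beyond counting error on this scale. For Fibcd1 there were 5.18 and 5.75 in the isolated and 5.53 and 5.85 in the group-housed libraries, so that on this scale its groups overlapped. For Neurod2 there were 0.324 and 0.318 in the isolated and 0.246 and 0.217 in the group-housed libraries, so both isolated libraries were above here too. For Prox1 there were 3.503 and 2.81 in the isolated and 4.42 and 4.68 in the group-housed libraries, so that on this scale both isolated libraries were below. Tbr1 also lay lower in both isolated libraries, at 0.0399 and 0.0310 against 0.0540 and 0.0435, from 15 to 19 counts a library, and the groups of Bcl11b and Neurod6 overlapped. The 12 markers themselves summed higher in both isolated libraries, so this scale lowers the isolated values of every gene relative to the group-housed ones. A gene with a level CPM comes out lower, and one higher in isolated libraries has its difference reduced. The lower values of Prox1 and Tbr1, whose groups overlapped in CPM, therefore do not show a difference of their own. The lost separation of Neurod1 and Fibcd1 likewise follows from the scale and does not show where their reads came from. The part of the medial habenula markers in the differences of these genes was not tested.

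The other hippocampal and cortical markers went both ways. Of the 30 genes in the 3 lists, 24 were tested, 0 passed in either direction, 11 had positive and 13 negative log2 fold changes, and the median was -0.02. The groups did not overlap for 5 of the 24 that were higher and 4 that were lower in the isolated libraries, near the 17.4% and 16.3% of all tested genes. Their summed level was 1060.3 and 1030.5 CPM in the isolated and 1001 and 1026 CPM in the group-housed libraries.

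Of the 8 dentate granule cell markers 7 were tested, and 0 passed. C1ql2 measured 4.85 ± 0.775 CPM in isolated and 3.59 ± 1.08 CPM in group-housed libraries (SD, n = 2 each; log2 fold change 0.42), and the related C1ql3 22.9 ± 8.85 and 29.4 ± 9.80 CPM (-0.37). Dsp, desmoplakin of cell junctions, measured 0.550 ± 0.0301 and 1.06 ± 0.0465 CPM (log2 fold change -0.94), from 14 to 28 counts a library. Plk5, a polo-like kinase gene, measured 9.16 ± 0.350 and 8.81 ± 0.0212 CPM (0.06).

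Of the 10 hippocampal pyramidal cell markers 8 were tested, and 0 passed. Pou3f1, a POU homeobox factor of CA1 and other neurons, measured 16.5 ± 1.16 CPM in isolated and 11.2 ± 0.216 CPM in group-housed libraries (SD, n = 2 each; log2 fold change 0.56, edgeR adjusted p = 0.319), with both isolated libraries above. Bok, of the BCL2 family, measured 13.9 ± 1.61 and 18.3 ± 2.81 CPM (-0.41, edgeR adjusted p = 0.840). Wfs1, an endoplasmic reticulum membrane protein gene that marks CA1 as Fibcd1 does, measured 59.2 ± 1.31 and 60.4 ± 0.445 CPM (-0.03), and Mpped1 26.2 ± 0.0842 and 26.2 ± 0.766 CPM (0.0013).

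Of the 12 cortical and pallial markers 9 were tested, and 0 passed. Nrn1, neuritin, was the most abundant at 290.5 ± 0.534 CPM in isolated and 280.0 ± 8.002 CPM in group-housed libraries (SD, n = 2 each; log2 fold change 0.05). Slc17a7 measured 233 ± 26.5 and 189 ± 8.93 CPM (0.30, edgeR adjusted p = 0.716) and the activity-regulated factor gene Mef2c 23.8 ± 7.12 and 30.7 ± 3.23 CPM (-0.37, edgeR adjusted p = 0.979). Markers of the striatum and forebrain interneurons, where Bcl11b and Prox1 are also made, had 6 of 12 genes tested and 0 passing. The dopamine receptor gene Drd2 measured 8.42 ± 1.61 and 11.5 ± 0.195 CPM (-0.45) and the striatal regulator gene Rgs9 32.8 ± 1.73 and 28.3 ± 2.09 CPM (0.21).

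The E-protein partners of the NeuroD factors and the Id and Hes inhibitors averaged from 5.33 CPM (Hes1) to 144 CPM (Tcf4). Of 9 E-protein, Id and Hes genes all were tested and 0 passed, with log2 fold changes from -0.10 to 0.31 and a median of 0.01. The value of 0.31 was that of Hes5, at 13.7 and 8.54 CPM in the isolated and 7.90 and 9.96 CPM in the group-housed libraries, so its groups overlapped. Tcf4, an E-protein gene, measured 138 ± 4.70 CPM in isolated and 149 ± 12.1 CPM in group-housed libraries (SD, n = 2 each; log2 fold change -0.10). Tcf3, the E-protein E2A gene, measured 36.5 ± 3.46 and 32.5 ± 2.01 CPM (0.17). Id4, which encodes an inhibitor that binds E proteins and keeps them from DNA, measured 132 ± 9.89 and 138 ± 10.01 CPM (-0.06).

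Relatives of the 7 genes were mostly scarce. Of 9 related bHLH factors 7 averaged below 1 CPM, 5 were tested and 0 passed. Bhlhe22 measured 5.65 ± 0.409 CPM in isolated and 6.07 ± 1.21 CPM in group-housed libraries (SD, n = 2 each; log2 fold change -0.11), Atoh8 3.81 ± 0.111 and 3.41 ± 1.03 CPM (0.17) and Neurog2, a proneural factor upstream of NeuroD genes in the cortex, 0.474 ± 0.0833 and 0.569 ± 0.185 CPM (-0.29). Bcl11a, the relative of Bcl11b, measured 18.3 ± 0.887 and 15.2 ± 1.02 CPM (0.27, edgeR adjusted p = 0.902), with both isolated libraries above. Prox2 measured 2.69 ± 0.628 and 3.30 ± 0.456 CPM (-0.30), and Cask, a scaffold protein that acts with Tbr1 as a coactivator, 90.7 ± 4.57 and 95.5 ± 1.45 CPM (-0.07). The T-box relatives of Tbr1 were under the limit of 3 counts. Eomes had 1 and 0 counts in the isolated and 2 and 2 in the group-housed libraries, and Tbx21 had 1 count in all.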

How the data were processed

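Per the labels' protocols, Trizol was used to isolate RNA and the sequencing libraries came from Illumina's TruSeq Stranded mRNA LT kit. Among the tools in the submitters' processing notes are CASAVA, HTSeq, edgeR and TopHat2 2.1.1, with the build GRCm38, and the notes do not give the role of each. The authors deposited a matrix of raw counts for Ensembl genes, which served every test. Their separately deposited scaled values were not used here. Of 53465 identifiers, 53274 were matched to a symbol. Coordinates, exonic lengths and overlaps came from GENCODE M21 (GRCm38).

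The 2-sided quasi-likelihood test of edgeR 4.0.16 (R 4.3.3) compared isolated with group-housed libraries, with TMM scaling, the default low-count filter (17528 genes kept), no covariate and Benjamini-Hochberg adjustment at 0.05. Intervals come from this fit. Replicates differed by more than counting noise (chi-square per degree of freedom 7.57 for isolated and 5.05 for group-housed), and each library was taken as 1 replicate. This index cannot tell separate animals from libraries of the same pool, since part of the spread may be technical. The procedure was tested on simulated counts with a single spread for all genes and larger changes than those of these 7 genes. The changes were placed in well-counted genes only, so that test does not cover genes as scarce as Neurod6 and Tbr1. Alternatives were other scalings, filters and tests (DESeq2 1.42.0, limma-voom 3.58.1, the exact test), a replicate block and leaving out each library. The 7 genes, the 16 other lists and the rule for named genes were chosen with earlier results of these data known. By that rule the genes of a list that passed were named, or else its 2 most abundant and 2 with the smallest p. This was applied to the NeuroD-related, hippocampal, cortical and striatal lists and to the genes called in the medial habenula list. The remaining lists are given by sums, counts or medians. A few genes of the cortical list are not reported here, and its counts leave them out.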

Additional observations from a re-analysis of the deposited data

How the results depend on the processing

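Of the 7 genes, Neurod1, Neurod2, Neurod6, Bcl11b and Fibcd1 kept a positive log2 fold change under every alternative that gave a value. With 1 library left out, values ran from 0.37 to 0.57 for Neurod1, 0.71 to 1.001 for Neurod2, 0.0086 to 0.67 for Neurod6, -0.30 to 0.0053 for Prox1, 0.07 to 0.67 for Bcl11b, -0.28 to 0.14 for Tbr1 and 0.25 to 0.41 for Fibcd1. Prox1 changed sign without isolated replicate 2 (0.0053), and Tbr1 did so without isolated replicate 2 (0.10) or group-housed replicate 1 (0.14). The exact test called 3 of the 7 genes higher, Neurod1 (0.47), Neurod2 (0.86) and Fibcd1 (0.33), and leaving out 1 library called 0 to 1 (Fibcd1, 0.41, without isolated replicate 1). No alternative called any of the 7 lower. Over all genes, 2 were called higher and 0 lower by the quasi-likelihood test, in which 496 and 397 had an unadjusted p below 0.05. The counts were 41 and 10 with DESeq2, 67 and 15 with the exact test and 15 and 0 with no filter on low counts. They ran from 0 to 151 higher and from 0 to 70 lower with 1 library left out, 151 and 70 without isolated replicate 1. The cause of these shifts was not tested. The labels give both groups the replicate numbers 1 and 2, with nothing that ties them to a shared animal or day. Deviations of same-numbered libraries from their group means correlated across 17528 genes at r = 0.14. With the replicate block, 52 genes, or 0.297% of all tested genes, were called higher and 12 lower. Of the 7 genes 1 was called, as higher, Neurod1 (log2 fold change 0.47, edgeR adjusted p = 0.0479). Neurod6 and Tbr1 fell under a minimum mean of 1 CPM and have no value there, and DESeq2 gave no adjusted p for them. Depth limits these 2 genes most, with 15 to 36 counts a library.

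The 16 other lists were also read for tissue content, without a test of their own. The median log2 fold change was 0.01 for lateral habenula (9 tested), -0.44 for thalamus (12), -0.49 for choroid plexus (8), 0.71 for ependyma (8), -0.21 for oligodendrocyte (8), -0.12 for astrocyte (8), -0.14 for microglia (6) and 0.06 for endothelial markers (6). Markers whose groups did not overlap were not limited to the medial habenula list. In isolated libraries, 8 thalamus, 6 oligodendrocyte, 5 astrocyte and 4 microglia markers were lower in this way, and 0 were higher. For ependyma, 7 were higher and 0 lower. For lateral habenula 3 were higher and 1 lower, for choroid plexus 1 and 0, and for endothelium 0 and 0. Of all tested genes, 17.4% were higher and 16.3% lower in this way. The sums of the 2 lists with the widest medians show single libraries apart. The 9 choroid plexus markers summed to 66.2 and 77.95 CPM in the isolated and 44.0 and 148 CPM in the group-housed libraries, so the isolated libraries lay between. The 8 ependyma markers summed to 77.5 and 150 CPM in the isolated and 74.7 and 70.3 CPM in the group-housed libraries, so isolated replicate 2 alone stood apart. Outside the medial habenula list, none of the genes in these lists passed the quasi-likelihood test in either direction.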
